A study of Mus musculus with 8 samples.

Results

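The genes described here are 8 cathepsins, the proteases of the lysosome, and the lysosomal membrane proteins Lamp1 and Lamp2, measured in the livers of mice given rilpivirine and in control livers. Rows of the deposited table were taken where the platform annotation gives exactly 1 gene symbol, and where several rows carry a symbol the brightest over all 8 arrays was kept. All 10 genes were found among 22180 genes with such a row, each with a single probe set, and all 10 passed the filter on low values, a mean of at least 2.72 log2, which left 16635 genes to test. The values are RMA expression values on the log2 scale, so a difference of 1 is a 2-fold change, and the level of a probe set cannot be compared with that of another.

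Total RNA was taken from snap-frozen liver of wild-type C57BL/6 mice and measured on Affymetrix whole-transcript arrays, 1 array for each of 8 samples. The rilpivirine group held 4 samples described as non-alcoholic fatty liver disease with rilpivirine treatment, and the control group held 4 samples described as non-alcoholic fatty liver disease. Rilpivirine is an antiretroviral drug against HIV that blocks reverse transcriptase outside its active site, and it was given daily by mouth in an amount said to match human dosing. The labels name a normal and a 60% fat diet over 3 months without assigning a diet to each sample, and name no vehicle, sex or age. Whether every sample is from a mouse of its own is not stated, so the p-values reflect the scatter among labelled replicates, part of which may be technical.

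Lysosomes are acidic compartments in which material from endocytosis, phagocytosis and autophagy is broken down, including, in the liver, lipid droplets and damaged mitochondria. Cathepsins are made as inactive precursors, are sorted to the lysosome largely by mannose 6-phosphate tags, and become active after cleavage in the acid interior. Heavily glycosylated LAMP proteins line the inner face of the lysosomal membrane, and LAMP2 also serves in the fusion of autophagosomes and in chaperone-mediated autophagy. Many of these genes are targets of TFEB and its relatives, transcription factors of the MiT/TFE family that bind sequences with the core CACGTG.

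The start regions of the genes are shown because the members differ in how many copies of that core they carry. RefSeq sequence of GRCm38.p6, covering 250 bases before and 50 bases after an annotated start, matched 8 of the 10 symbols (not Ctsb and Ctsh) with 9 windows. CACGTG, which reads the same on both strands, was found in windows of 4 members, Lamp1, Ctsd, Ctsa and Ctsl, whereas 7.15% of 32851 windows in the whole table hold it. Lamp1 had 4 copies, with their first bases at -61, -45, -28 and -15 (the annotated start counted as 0), and 0.0244% of all windows (8 windows) hold at least 4. Ctsd had 2 copies, at -245 and -98, and 1 of the 2 windows of Ctsa also had 2, while 0.594% of all windows hold at least 2. A longer form, the core with 2 specified bases added on each side, was also searched. It was found in 0 of the 9 windows. As 0.326% of all windows hold it, its absence from 9 windows says little. In the lines below, written 5′ to 3′ along the gene, capitals mark CACGTG.
Lamp1, chr8:13159011-13159160, plus strand: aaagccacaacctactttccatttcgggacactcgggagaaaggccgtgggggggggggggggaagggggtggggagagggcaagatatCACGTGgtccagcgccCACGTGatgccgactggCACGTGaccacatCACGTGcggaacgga
Ctsd, chr7:142387828-142388077, minus strand: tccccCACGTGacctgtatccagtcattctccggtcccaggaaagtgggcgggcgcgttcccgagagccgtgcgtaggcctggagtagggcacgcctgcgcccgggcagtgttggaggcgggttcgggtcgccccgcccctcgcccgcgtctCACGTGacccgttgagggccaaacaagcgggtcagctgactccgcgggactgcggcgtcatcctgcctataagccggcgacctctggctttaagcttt
Ctsa, chr2:164833759-164833785, plus strand: gtCACGTGatgcagatgctCACGTGac
Ctsl, chr13:64370739-64370768, minus strand: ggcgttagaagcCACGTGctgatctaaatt
The windows of Lamp2, Ctss, Ctsc and Ctsz held no CACGTG. Lamp2, the paralogue of Lamp1, is shown for comparison with a GC box in capitals (GGGCGG or its complement, which 35.7% of all windows hold), and Ctss is shown with GAAA, any 2 bases and GAAA in capitals, a core of interferon-responsive elements that was searched on both strands and is in 3.44% of all windows. The Lamp1 window also holds this pattern once, at -135 on the opposite strand, where it is left in lower case.
Lamp2, chrX:38456461-38456610, minus strand: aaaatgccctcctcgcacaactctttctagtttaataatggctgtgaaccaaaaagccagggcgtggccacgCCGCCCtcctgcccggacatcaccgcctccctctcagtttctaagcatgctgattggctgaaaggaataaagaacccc
Ctss, chr3:95526636-95526785, plus strand: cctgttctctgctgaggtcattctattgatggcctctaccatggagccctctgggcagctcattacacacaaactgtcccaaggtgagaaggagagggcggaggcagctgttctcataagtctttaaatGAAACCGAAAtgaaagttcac
These matches are descriptions of the sequence and do not show that a factor was bound in these livers.

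Some facts of the series bear on all values. Array medians lay between 3.33 and 3.45 log2. Over all probe sets, rilpivirine replicate 2 had a mean correlation of 0.965 with the other arrays, against 0.976 to 0.981 for the other 7, and the small nucleolar RNAs, 73 rows of the table, averaged 0.49 log2 above their mean over all arrays on it, against -0.62 to 0.28 elsewhere. Each of the 10 genes is therefore also given without that array, beside the range over all 8 ways of leaving out 1 sample. Of the 8 hepatocyte markers all were measured, and albumin (Alb) averaged 13.30 log2 with rilpivirine and 13.25 log2 in controls. The highest value of the whole table is 13.37 log2. These values go with the labelled tissue but are no strict check of it, as levels of different probe sets cannot be compared.

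None of the 10 genes differed between the groups by the test over all genes. Under limma with Benjamini-Hochberg adjustment at 0.05, 0 of the 10 passed, with adjusted p-values of 0.890 to 0.987, and 0 of all 16635 genes passed (0%). Before adjustment 0 of the 10 fell under 0.05 in limma, against 867 of all genes (5.21%). The smallest limma value of the 10 was that of Lamp1, 0.113 before and 0.890 after adjustment. In 0 of the 10 were the 4 rilpivirine and 4 control values fully separate, which held for 3.04% of all genes tested. Averages were lower with rilpivirine in 7 of the 10 and higher in 3, where 56.9% of all genes tested were lower and 43.1% higher. The median log2 difference over the 10 was -0.14, against -0.03 over all genes tested. With each array centred on its median it was -0.091, a shift that all genes share, so their median moved alike. After a further quantile normalization it was -0.087, with 6 lower and 4 higher. The 95% confidence interval of each of the 10 lay inside a 2-fold change in both directions, and for 7 of them (not Ctss, Lamp1 and Lamp2) it lay inside a 1.41-fold change, or 0.5 log2.

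**Figure D1:**
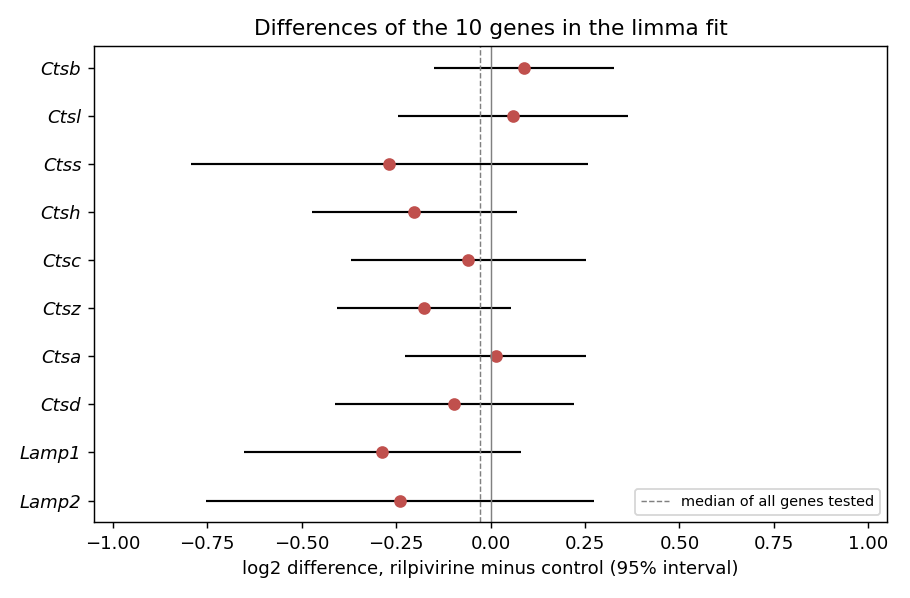
Log2 difference, rilpivirine minus control, of each of the 10 genes in the limma fit over all genes, with 95% confidence intervals as lines (n = 4 samples per group). All 10 intervals cross 0. The dashed line is the median of all genes tested, -0.03.

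Both membrane proteins had lower averages with rilpivirine. Lamp1 measured 10.20, 9.71, 10.11 and 10.55 log2 in rilpivirine replicates 1 to 4, against 10.58, 10.31, 10.43 and 10.41 in control replicates 1 to 4. In Lamp1, 3 of the rilpivirine arrays lay below every control array, and the other, replicate 4, lay above all controls but replicate 1. The difference was -0.29 ± 0.17 log2 (SE, n = 4 each), 0.820-fold, with an adjusted p of 0.890 in limma. It was -0.14 without rilpivirine replicate 2 and -0.42 without rilpivirine replicate 4, the ends of the range with 1 sample left out. Without replicate 4, the unadjusted p was 0.0171 and the adjusted p 0.531 in limma.

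Lamp2 measured 9.04, 8.96, 9.88 and 9.69 log2 with rilpivirine, against 9.73, 9.19, 9.62 and 9.99 in controls. Rilpivirine replicates 1 and 2 were the lowest of the 8 arrays and replicates 3 and 4 lay among the controls. Its difference was -0.24 ± 0.23 log2 (SE, n = 4 each; adjusted p = 0.904 in limma). The spread within each group was wide, 0.46 log2 with rilpivirine and 0.34 in controls (SD). With 1 sample left out it ran from -0.40 (without rilpivirine replicate 3) to -0.10 (without rilpivirine replicate 2), and it was -0.39 without control replicate 2. Lamp2 is spliced into several forms that differ in their membrane-spanning end, and which of them the probe set covers is not given in the sources used here.

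**Figure D2:**
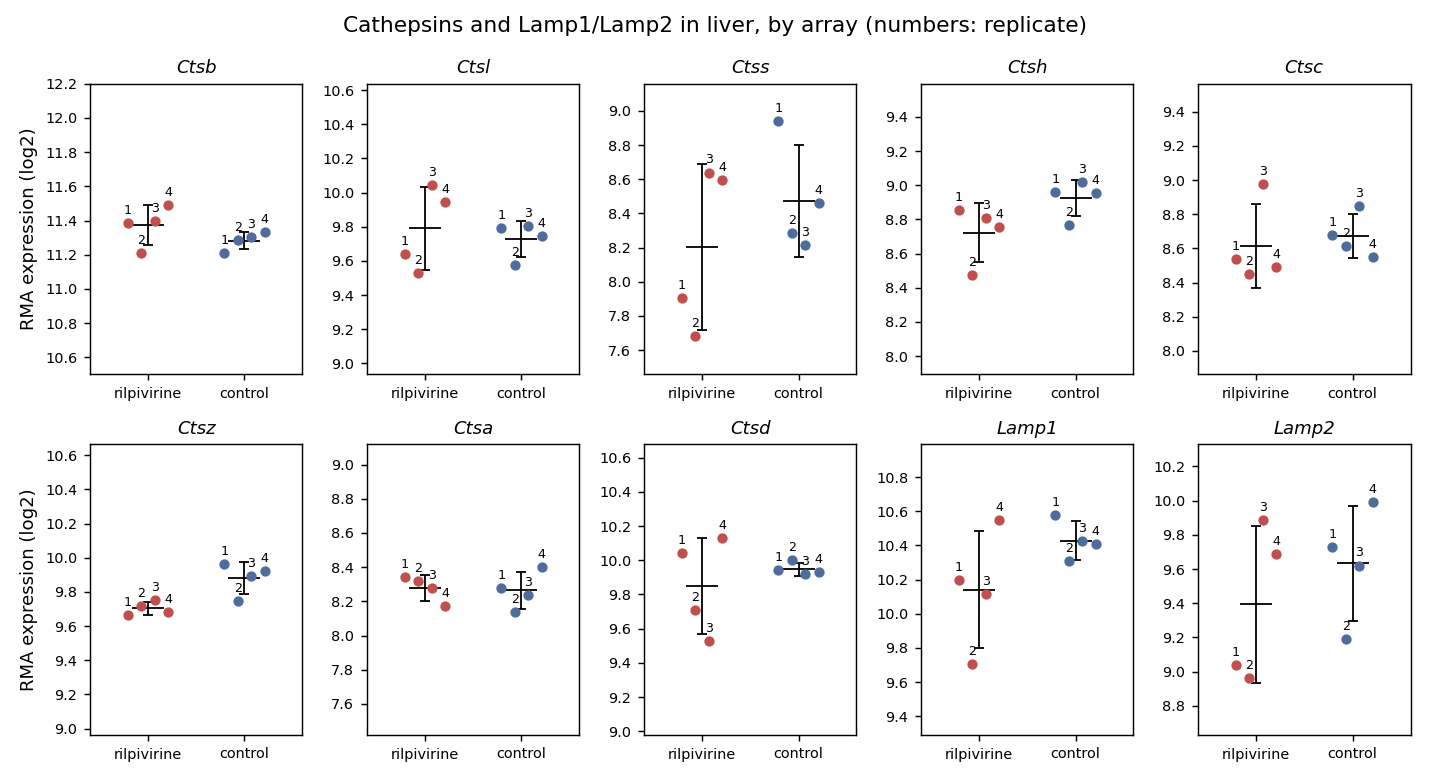
Expression (log2, RMA) of the 10 genes on each array; points are arrays with their replicate number, horizontal bars with error bars are the group mean ± SD (n = 4), and every panel spans the same log2 range. Values of rilpivirine and control arrays overlap in all 10 genes, and Ctsz came nearest to separate groups.

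The cysteine endopeptidases cut proteins within the chain. Ctsb, which encodes cathepsin B, an abundant protease of hepatocyte lysosomes, measured 11.39, 11.21, 11.40 and 11.49 log2 with rilpivirine, against 11.21, 11.28, 11.30 and 11.33 in controls. Of the rilpivirine arrays, 3 lay above all controls and replicate 2 was the lowest of the 8, by a margin over control replicate 1 that was within rounding. The difference was 0.09 ± 0.11 log2 (SE, n = 4 each), with an interval from 0.902-fold to 1.26-fold. It was 0.14 without rilpivirine replicate 2, in a range of 0.05 to 0.14.

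Ctsl, which encodes cathepsin L, measured 9.64, 9.53, 10.04 and 9.94 log2 with rilpivirine, against 9.79, 9.58, 9.81 and 9.75 in controls. Rilpivirine arrays lay on both sides of the controls, with replicates 3 and 4 above all of them and replicate 2 below all of them. The average difference was 0.06 ± 0.14 log2 (SE, n = 4 each). It was 0.15 without rilpivirine replicate 2 and -0.02 without rilpivirine replicate 3, which bound the range.

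Ctss encodes cathepsin S, which stays active near neutral pH and, in antigen-presenting cells, trims the invariant chain of MHC class II. It measured 7.91, 7.68, 8.64 and 8.60 log2 with rilpivirine, against 8.94, 8.28, 8.21 and 8.46 in controls. The same 2 rilpivirine arrays as for Lamp2 were below all controls, and the highest value was that of control replicate 1. Its difference of -0.27 ± 0.24 log2 (SE, n = 4 each; adjusted p = 0.899 in limma) had the widest interval of the 10, from 0.577-fold to 1.19-fold. Without rilpivirine replicate 2 it was -0.09, and without rilpivirine replicate 3 it was -0.41, the ends of its range.

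As Ctss is largely a gene of macrophages in liver, the macrophage markers are given beside it. In bulk tissue fewer cells of a type and less RNA per cell cannot be told apart. Of 10 Kupffer cell markers, the resident macrophages, all were tested. Rilpivirine averages were lower in 9 and higher in 1 of them (median -0.13 log2). Their mean level per array was 6.92 to 7.39 log2 over the rilpivirine samples, against 7.17 to 7.52 log2 over controls. Of 10 monocyte and lipid-associated macrophage markers, 9 had a row and 8 were tested; all 8 were lower, with a median of -0.29 and mean levels of 4.87 to 5.71 log2 with rilpivirine and 5.31 to 5.84 log2 in controls. The genes of that list with the smallest p were Ms4a7, with -0.49 ± 0.20, and Trem2, with -0.32 ± 0.14 (SE; both adjusted p = 0.890 in limma). Ccr2 was below the filter, and none was at 0, as the lowest value in the whole table is 0.696 log2. Rilpivirine replicates 1, 2, 3 and 4 deviated by -0.21, -0.48, -0.28 and 0.37 log2 in the monocyte list, and Ctss by -0.43, -0.66, 0.30 and 0.26. Replicate 3 was thus low in the markers and high in Ctss, while control replicate 1 was the highest of the 8 arrays in both (0.50 in the list and 0.60 in Ctss). The Kupffer list ran otherwise, with deviations of 0.0026, -0.20, 0.14 and -0.33 log2 in rilpivirine replicates 1 to 4, against -0.02, -0.08, 0.27 and 0.21 in control replicates 1 to 4. There rilpivirine replicate 3 was high and replicate 4 the lowest, and control replicate 1 was near the mean. Clec4f, the defining Kupffer cell lectin, differed by -0.13 ± 0.18 log2 (SE), Timd4 by -0.04 ± 0.24 and Adgre1 by -0.12 ± 0.14. The complement genes C1qb and C1qa had the smallest p of the Kupffer list, with differences of -0.50 ± 0.14 and -0.33 ± 0.11 (SE; adjusted p = 0.777 and 0.855 in limma), and in both, 2 of the 10, the groups did not overlap, against 3.04% of all genes. The part of macrophage content in the values of Ctss was not tested.

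The exopeptidases trim residues from the ends of proteins. Ctsh, which encodes the aminopeptidase cathepsin H, measured 8.85, 8.47, 8.81 and 8.76 log2 with rilpivirine, against 8.96, 8.77, 9.02 and 8.95 in controls. All rilpivirine arrays lay below 3 of the 4 controls, and control replicate 2 lay among them. The difference was -0.20 ± 0.12 log2 (SE, n = 4 each; adjusted p = 0.890 in limma), and -0.12 without rilpivirine replicate 2, in a range of -0.25 to -0.12.

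Ctsc encodes cathepsin C, or dipeptidyl peptidase 1, which removes dipeptides and activates the serine proteases of granules in neutrophils and cytotoxic lymphocytes. It measured 8.54, 8.45, 8.98 and 8.49 log2 with rilpivirine, against 8.68, 8.61, 8.85 and 8.55 in controls. Replicate 3 was the highest array of all and the other 3 rilpivirine arrays were the lowest, all below the lowest control. Its difference was -0.06 ± 0.14 log2 (SE, n = 4 each). Leaving out rilpivirine replicate 2 gave -0.0038, leaving out rilpivirine replicate 3 gave -0.18 and leaving out control replicate 3 gave 0.00040, so that the size and sign rest on single samples. Neutrophil markers were dim: of 6, S100a8, S100a9 and Retnlg did not pass the filter, and the 3 tested had a median difference of 0.01.

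Ctsz, which encodes the carboxypeptidase cathepsin Z, also called cathepsin X, measured 9.67, 9.72, 9.75 and 9.68 log2 with rilpivirine, against 9.96, 9.75, 9.89 and 9.92 in controls. It came nearest to separate groups: all rilpivirine arrays were below 3 controls, and control replicate 2 lay just under rilpivirine replicate 3. The difference was -0.18 ± 0.10 log2 (SE, n = 4 each), 0.885-fold, with an adjusted p of 0.890 in limma. Its rilpivirine arrays were the closest to each other of the 10 genes (SD 0.04, against 0.09 in controls), and the difference was as large without rilpivirine replicate 2 (-0.18, in a range of -0.22 to -0.15). Ctsz was also among the 4 genes, with Ctsh, Ctsb and Lamp1, that kept the sign of their difference under each of the 18 alternative settings. Among these, other moderation, other filters, probe set averaging and the replicate block leave the differences of the 10 genes unchanged, so no sign could change there.

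Ctsa encodes cathepsin A, the serine carboxypeptidase known as protective protein because it holds beta-galactosidase and the sialidase NEU1 in a stable complex. It measured 8.34, 8.32, 8.28 and 8.17 log2 with rilpivirine, against 8.28, 8.14, 8.24 and 8.40 in controls. The rilpivirine values lay wholly within the range of the controls, and the difference was 0.01 ± 0.11 log2 (SE, n = 4 each), with an interval from 0.855-fold to 1.19-fold. It was 0.00027 without rilpivirine replicate 2, in a range of -0.03 to 0.06. Neu1 itself measured 6.60, 6.60, 6.52 and 6.27 log2 with rilpivirine, against 6.69, 6.75, 6.82 and 6.70 in controls. These groups did not overlap, as in 3.04% of all genes tested, but the difference of -0.24 ± 0.12 log2 (SE, n = 4 each) did not pass the test (adjusted p = 0.890 in limma, unadjusted 0.0636).

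Ctsd encodes cathepsin D, the aspartic endopeptidase of lysosomes. It measured 10.04, 9.71, 9.53 and 10.13 log2 with rilpivirine, against 9.94, 9.9997, 9.92 and 9.93 in controls. The controls were nearly equal, with an SD of 0.04, while 2 rilpivirine arrays lay above all of them and 2 below all of them, with an SD of 0.28. The difference of the averages was -0.10 ± 0.14 log2 (SE, n = 4 each; adjusted p = 0.930 in limma), -0.05 without rilpivirine replicate 2 and 0.01 without rilpivirine replicate 3. The lowest value with 1 sample left out was -0.19, without rilpivirine replicate 4.

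The spread within the rilpivirine group was a common feature. The SD was larger with rilpivirine than in controls in 8 of the 10 genes (not Ctsa and Ctsz), and in 69.8% of all genes tested. Rilpivirine replicate 2 was the lowest of the 8 arrays in 7 of the 10: Ctsb, Ctsl, Ctss, Ctsh, Ctsc, Lamp1 and Lamp2. How often it was the lowest over all genes was not counted, so this is not shown to be particular to the 10. That array was also the lowest on average in the lysosomal lists below (-0.37 to -0.09 log2). The exception was the list of other cathepsins, where it was the highest (0.07). Averaged over the 10, deviations from each gene's own mean were -0.10, -0.29, 0.08 and 0.08 log2 in rilpivirine replicates 1 to 4, against 0.14, -0.07, 0.06 and 0.10 in control replicates 1 to 4. Control replicate 2 was the lowest control in 6 genes. Control replicate 2 was below the mean in 8 of the 10 genes, and control replicate 1 was below it in 1. Other arrays were mixed: in rilpivirine replicate 3, Ctsl, Ctsc, Ctss and Lamp2 lay 0.28, 0.33, 0.30 and 0.37 log2 above their means, and Ctsd lay at -0.37. Without rilpivirine replicate 2 the median of the 10 was -0.07. Rilpivirine replicates 1 and 2 were the lowest of their group on average over the 10. With both left out the median was 0.01, with 5 genes lower and 5 higher. The choice rested on the same 10 genes, so a rise of their average difference was fixed in advance. The differences of Ctsa and Ctsd fell, from 0.01 to -0.04 and from -0.10 to -0.12, while those of the other genes rose. The median of 0.01 is therefore no test of the difference. In a fit that also held each array's small nucleolar RNA level the median of the 10 was -0.01, also with 5 lower and 5 higher. That level differed with group, as 68 of 72 small nucleolar RNAs tested averaged higher with rilpivirine. Such a fit can therefore take up part of any group difference. The part of the features that set replicate 2 apart in these differences was not tested.

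**Figure D3:**
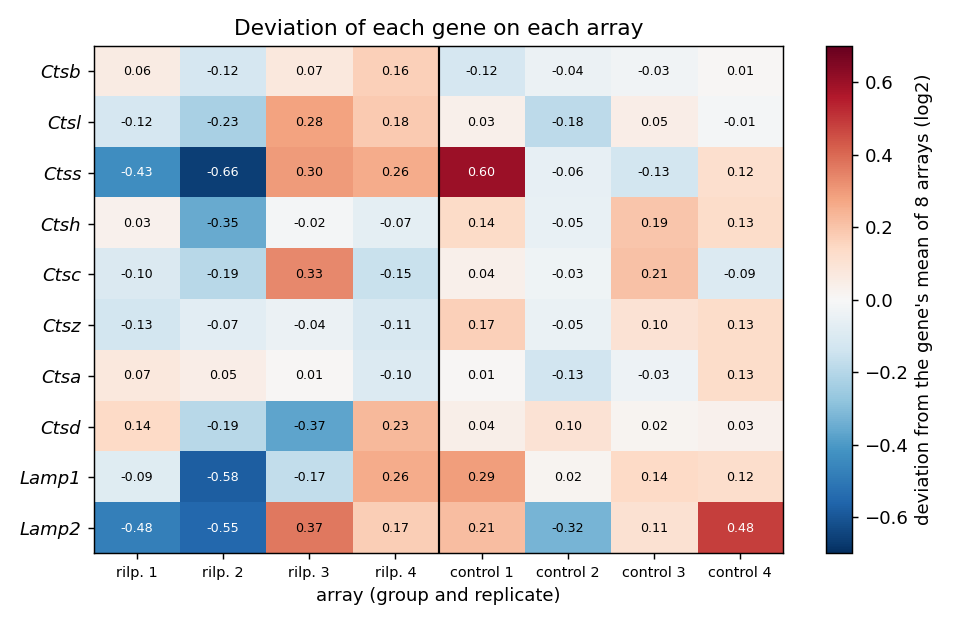
Deviation of each of the 10 genes (rows) from its own mean over 8 arrays, in log2, on each array (columns, rilpivirine left of the line and control right of it). Rilpivirine replicate 2 is below the mean in 9 of the 10 genes, and Ctsd is lowest in rilpivirine replicate 3, where Ctsl, Ctsc, Ctss and Lamp2 are high.

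Whether paired members responded differently was asked for 6 pairs. They were of like kind except Ctsd minus Ctsb, an aspartic against a cysteine protease. The difference between both genes was taken on each array. An exact two-sided permutation test covered the 70 ways to assign the 8 samples to groups. With 4 arrays in each group the smallest p is 0.0286, and p-values were adjusted over the 6 pairs. After adjustment 0 of 6 pairs passed, and a single pair at the smallest p could not pass, as it is adjusted to 0.171. The Ctsa minus Ctsz difference, of the carboxypeptidases, reached that smallest p. It was -1.32, -1.40, -1.47 and -1.51 log2 with rilpivirine and -1.68, -1.61, -1.66 and -1.52 log2 in controls, without overlap. Its average was higher with rilpivirine by 0.19 ± 0.05 log2 (SE, n = 4 each), with an exact permutation p of 0.0286, adjusted 0.171. A differing response of Ctsa and Ctsz was thus not shown. Ctss minus Ctsl differed by -0.33 ± 0.20 log2 (SE; exact p = 0.143, adjusted 0.343) and Ctsd minus Ctsb by -0.19 ± 0.13 (SE; exact p = 0.171, adjusted 0.343). Ctsc minus Ctsh differed by 0.14 ± 0.13 (SE; exact p = 0.371, adjusted 0.557). Lamp1 minus Lamp2 differed by -0.05 ± 0.24 and Ctsb minus Ctsl by 0.03 ± 0.11 (SE; exact p = 0.83 for both, adjusted 0.83). These pairs were not shown to respond alike, and for Lamp1 minus Lamp2 and Ctsb minus Ctsl the standard error was larger than the difference.

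The differences are set here beside the CACGTG counts as a description. Lamp1, with 4 copies, and Ctsd, with 2, differed by -0.29 and -0.10 log2, while Ctsa and Ctsl differed by 0.01 and 0.06. Of Lamp2, Ctss, Ctsc and Ctsz, whose windows hold none, all 4 had averages lower with rilpivirine, from -0.27 to -0.06, as had 56.9% of all genes tested. The signs of Ctsa, Ctsc, Ctsd and Ctsl changed when certain single samples were left out. None of the 8 passed the test, and a link between CACGTG and these differences was not tested.

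Other lysosomal genes give the setting of the 10, and in none of these lists did a gene pass after adjustment over all genes. Of 46 soluble lysosomal hydrolases and activators 39 were measured and tested, of which 24 had lower and 15 higher averages in rilpivirine livers (median -0.05). At an unadjusted p under 0.05 there were 0. Groups did not overlap in Neu1, which was lower, and in Gla, which encodes alpha-galactosidase A and was higher by 0.20 ± 0.11 log2 (SE; adjusted p = 0.890 in limma), or 2 of the 39, against 3.04% of all genes. Besides Neu1, the smallest p-values were those of the acid phosphatase Acp5, with -0.24 ± 0.13 log2, and the serine carboxypeptidase Scpep1, a relative of Ctsa, with 0.21 ± 0.11 (SE; both adjusted p = 0.890 in limma). Of 32 other lysosomal membrane proteins 31 were measured and 30 tested, 20 lower and 10 higher, with a median of -0.05. Their smallest p-values belonged to the peptide transporters Slc15a4, with -0.42 ± 0.19, and Abcb9, with -0.26 ± 0.12, and to the calcium channel Mcoln1, with -0.30 ± 0.13 (SE; all with an adjusted p of 0.890 in limma). Slc15a4 was 1 of 30 under an unadjusted p of 0.05, against 5.21% of all genes. Groups did not overlap in Abcb9, 1 of the 30, against 3.04% of all genes. Abcb9 was dim, with means of 3.70 log2 with rilpivirine and 3.96 in controls. Scarb2, which carries beta-glucocerebrosidase to the lysosome, differed by -0.20 ± 0.14, and the macrophage-rich Cd68 by -0.15 ± 0.12 (SE).

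The V-ATPase, the proton pump that acidifies the lysosome, had 15 of 16 listed subunits tested, 12 of them lower and 3 higher in rilpivirine livers (median -0.13), close to that of the 10 genes. Atp6v0e, Atp6v1e1 and Atp6v1g1 differed by -0.32 ± 0.15, -0.33 ± 0.21 and -0.22 ± 0.15 log2 (SE; adjusted p = 0.890 in limma for each). Here too rilpivirine replicate 2 was the lowest array, at -0.37 log2 from the mean of the list, against -0.07 to 0.16 for the other 7, and without it the median was -0.05.

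Among 22 MiT/TFE factors and genes of lysosomal nutrient sensing, 21 were tested, 16 lower and 5 higher, with a median of -0.12. The factors themselves, Tfeb, Tfe3, Mitf and Tfec, differed by -0.11 ± 0.15, 0.17 ± 0.15, -0.12 ± 0.16 and -0.11 ± 0.18 log2 (SE). The genes with the smallest p were Tsc1, an inhibitor of mTORC1, with -0.40 ± 0.12, Lamtor4, a subunit of the Ragulator complex that anchors mTORC1 to the lysosome, with -0.33 ± 0.11, and the folliculin partner Fnip2, with -0.41 ± 0.16 (SE; adjusted p = 0.813, 0.855 and 0.890 in limma). Groups did not overlap in Tsc1 and Lamtor4, 2 of the 21, against 3.04% of all genes. These 3 were the members at an unadjusted p under 0.05, all lower, where 3.21% of all genes were at that p and lower.

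Sorting genes were spread about evenly. Of 17 genes listed for mannose 6-phosphate tagging or for other steps of sorting to the lysosome, 9 had lower and 8 higher averages (median -0.02). The mannose 6-phosphate receptors M6pr and Igf2r differed by 0.07 ± 0.15 and 0.09 ± 0.11 log2 (SE). Ap1m1, Sort1 and Vps29 had the smallest p-values, with 0.23 ± 0.13, 0.24 ± 0.14 and -0.28 ± 0.19 (SE; adjusted p = 0.890 in limma for each).

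Of 16 other cathepsin genes 10 were tested, 7 higher and 3 lower, with a median of 0.01, and 6 were below the filter, among them Ctsm, Ctsq and Ctsr, which are expressed in placenta. Many of those tested were dim too. Group means of Ctsj, Ctsk, Ctsll3, Cts3, Ctse and Ctsg were 2.85 to 3.45 log2, where array medians were 3.33 to 3.45. The median of this list therefore says little about cathepsins expressed in liver. Ctsw, a cathepsin of cytotoxic lymphocytes, measured 4.44, 4.09, 4.13 and 3.98 log2 with rilpivirine, against 3.58, 3.64, 4.01 and 3.95 in controls, with a difference of 0.37 ± 0.15 (SE; adjusted p = 0.890 in limma, unadjusted 0.0290). Ctsf, Ctsk and Ctso, the 3 with lower averages, differed by -0.21 ± 0.14, -0.16 ± 0.14 and -0.14 ± 0.18 (SE). Ctso and Ctsf were the brightest of the 10 tested. T cell markers, of which 4 of 5 were tested, had a median of -0.003, with Cd8a at 0.14 ± 0.16, Cd3e at 0.11 ± 0.25, Cd3g at -0.11 ± 0.17 and Cd4 at -0.12 ± 0.21 (SE). Of the cystatin inhibitors of cysteine cathepsins, 3 of 11 passed the filter: Cstb and Cst3 differed by -0.39 ± 0.23 and -0.21 ± 0.15, and Cst7 by 0.03 ± 0.13 (SE). Cstb was lowest in rilpivirine replicate 2 and Cst3 in rilpivirine replicate 3.

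**Figure D4:**
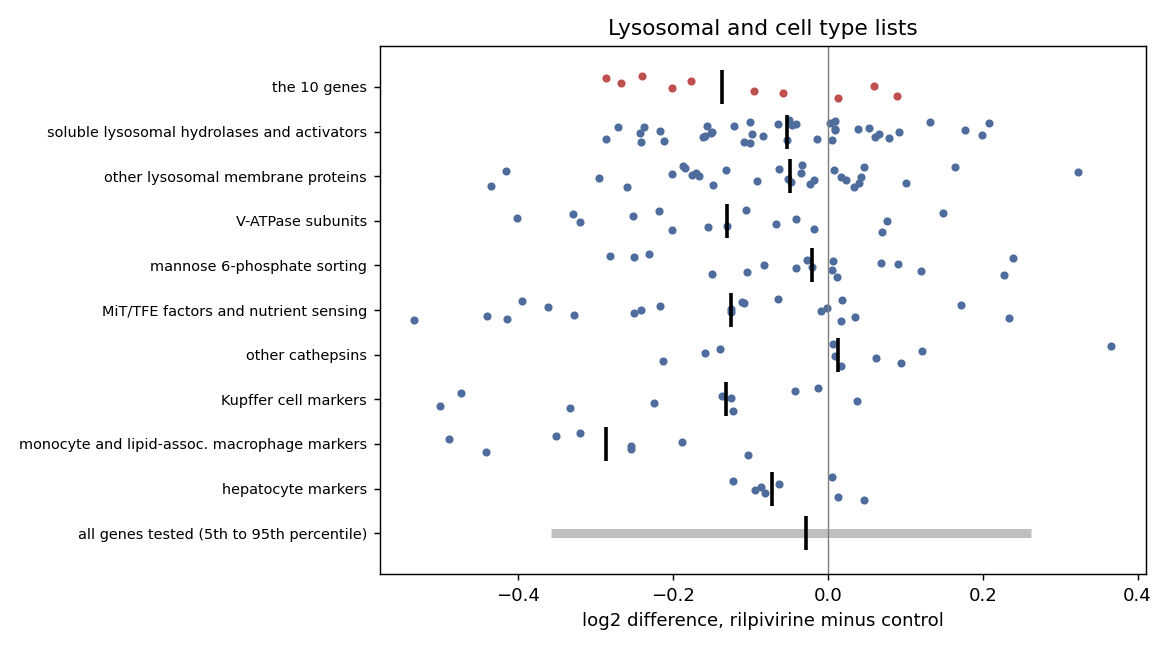
Log2 difference, rilpivirine minus control, of each gene tested (points) in the 10 genes, in lysosomal lists and in cell type lists, with list medians as black bars. The grey bar spans the 5th to 95th percentile of all 16635 genes tested, -0.36 to 0.26, and its median is -0.03. The 10 genes lie between -0.29 and 0.09, inside that span.

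Markers of other cell types are given as values. Hepatocyte markers had a median difference of -0.07, sinusoidal endothelial markers 0.31 over 6 genes, with 3 of them higher at an unadjusted p under 0.05 (Kdr, Oit3 and Stab2) where 2% of all genes were, stellate cell markers -0.05 over 6 and cholangiocyte markers 0.06 over 4. Of 4 B cell markers Cd79a and Cd79b were tested, with 0.34 ± 0.14 and 0.04 ± 0.17 log2 (SE). Small nucleolar RNAs had a median of 0.29 over 72 genes tested.

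The 5 genes outside the list whose deviations lay closest to the average deviation of the 10 over the 8 arrays were Aifm1, Map11, Agpat3, Selenop and Clcn4. Their mean absolute difference from that profile was 0.03 to 0.04 log2, against 0.08 to 0.22 log2 for the 10 genes themselves. As the 5 were picked as the closest among all other genes tested, their smaller distance follows from the choice. Aifm1, a flavoprotein of mitochondria that moves to the nucleus in cell death, measured 7.90, 7.75, 8.01 and 8.06 log2 with rilpivirine, against 8.12, 7.94, 8.08 and 8.15 in controls. Selenop, the plasma selenoprotein made by liver, had a difference of -0.11 ± 0.12 log2 (SE; adjusted p = 0.916 in limma). This likeness is a description over 8 arrays.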

How the data were processed

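The deposited values are log2 expression values of 41345 probe sets on 8 arrays, made by the authors with RMA per the submitters' processing notes, which also name limma. The sources used here give no versions and no genome build. RMA as a method corrects background, applies quantile normalization and summarises probes, which removes differences in total signal between arrays. The number of arrays, 4 per group, limits the precision.

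Of the probe sets, 23521 had 1 gene symbol in the platform annotation, 1814 several and 16010 none listed. The brightest single-symbol probe set of each gene was used, and a gene was kept where its mean reached the 25th percentile. Rilpivirine minus control was fitted with lmFit and eBayes (limma 3.58.1, R 4.3.3), two-sided, without covariates, with Benjamini-Hochberg adjustment over all genes tested; the fit was tested on simulated data. Pairs of genes were compared by exact permutation. Named were the 10 genes, up to 3 genes per lysosomal list by smallest p, and the 5 nearest profiles. Defining markers of cell types were named where they bear on a result. Scarb2, Cd68, M6pr, Igf2r, Gla and the MiT/TFE factors were named, for their roles or separate groups, after values were seen. Further genes among the other cathepsins were named for their brightness, also after values were seen. Members and lists were chosen with earlier results of these data known. The 18 alternatives were other moderation, array weights, scaling, filters, probe set averaging, the replicate block, a small nucleolar RNA covariate and left-out samples.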

Additional observations from a re-analysis of the deposited data

Results flagged for a closer look

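In Ctsc, which encodes cathepsin C, rilpivirine replicate 3 measured 8.98 log2, far above the other 3 rilpivirine samples at 8.45, 8.49 and 8.54 for a group of 4. The gap to its nearest neighbour was 0.83 of the whole range of the group. Both groups of all 10 genes, 20 in all, were examined in this way and 1 was singled out; chance alone gives about 1 in 20. The same array was also the highest rilpivirine sample for Ctsl, Ctss, Ctsz and Lamp2, and the lowest for Ctsd.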

How the results depend on the processing

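Over the 18 alternatives limma called 0 genes after adjustment, the 10 genes included, and the smallest adjusted p of any of the 10 was 0.531 (Lamp1 without rilpivirine replicate 4). Genes at an unadjusted p under 0.05 numbered 867, between 578 and 1524 with a sample left out, the highest without rilpivirine replicate 4. Their share of higher genes was 38.4%, 57.8% after centring of each array on its median and 51.1% after a further quantile normalization. Whether the replicate numbers pair the samples was not tested. Deviations of same-numbered samples correlated at -0.25, 0.46, -0.09 and 0.07 for replicates 1 to 4, and 2 of 8 samples correlated best with their own number. Both replicate 2 arrays had the highest small nucleolar RNA level of their group (0.49 log2 above the mean with rilpivirine and 0.28 in controls). With the replicate block 1071 genes had an unadjusted p under 0.05 and 0 passed after adjustment. The median of the 10 genes ran from -0.19 to -0.07 with a sample left out. It was 0.011 without rilpivirine replicates 1 and 2 together. These were the lowest rilpivirine arrays on average over the 10, so a rise of the average difference was fixed in advance.

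Differences of the 10 genes changed sign in 12 instances, and the cause was not tested. With a sample left out, Ctsa ran from -0.029 to 0.060, Ctsc from -0.18 to 0.00040, Ctsd from -0.19 to 0.012 and Ctsl from -0.025 to 0.15. Without rilpivirine replicates 1 and 2 together, Ctsa, Ctsc, Ctss and Lamp2 differed by -0.039, 0.060, 0.14 and 0.15. Those arrays were the lowest of their group on average over the 10 genes, so this setting was no neutral check. With the small nucleolar RNA covariate Ctss and Lamp2 differed by 0.040 and 0.013, and after a further quantile normalization Ctsc by 0.019. Of the pairs, Ctsb minus Ctsl ran from -0.024 to 0.11 and Lamp1 minus Lamp2 from -0.18 to 0.13 with a sample left out, and Ctsb minus Ctsl was -0.10 without rilpivirine replicates 1 and 2. The exact tests of the pairs are too small for a lone pair to pass after adjustment, so the 0 of 6 pairs passed in the 10 alternatives run says nothing about stability; limma on the within-array differences gave Ctsa minus Ctsz an adjusted p of 0.257. Averaging of probe sets changes none of the 10 genes, each with 1 probe set, and was not run for the pairs. Other moderation, other filters and the replicate block also leave the differences of the 10 genes as they were and change only their p-values.

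Among lists, the median of the other cathepsins was 0.058 after centring, -0.066 with the filter at the 50th percentile, -0.031 with the covariate and -0.025 to 0.075 with a sample left out. After a further quantile normalization the hydrolases had 0.029 and the other membrane proteins 0.026. The cystatins had 0.026 with the mean of all probe sets, and stellate markers 0.11 without rilpivirine replicates 1 and 2 together. Lists left with under 3 genes gave no value.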
